A study of Mus musculus with 12 samples.

Results

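Obstructed kidneys of mice without a working Acot12 gene were compared with obstructed wild-type kidneys on day 7 after unilateral ureteral obstruction (UUO), in which 1 ureter is closed and the kidney behind it becomes fibrotic. The comparison took the 6 UUO libraries of the 12 in the series, 3 labelled Acot12-/- UUO and 3 labelled WT UUO. The other 6 come from the contralateral (CL) kidneys of the same genotypes, and their values are given only where named. They share the main fit, so its standard errors, intervals and p-values rest on the spread in all 12 libraries. All are RNA sequencing libraries of kidney cortex from male C57BL/6 mice (C57BL/6N in the study's design), operated on at 6 to 7 weeks of age. The knockout is a global one, passed through the germline from an allele mutated with an RNA-guided endonuclease, so every cell type carries it, and the WT mice carry no engineered allele. Neither the labels nor the study say that the 3 animals of a group came from separate litters or that the genotypes were littermates, so differences that run with a breeding line cannot be told apart from those of the allele. Nothing states that a library was pooled from several animals.

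ACOT12 is a cytosolic acyl-CoA thioesterase that splits acetyl-CoA into acetate and coenzyme A. Acetyl-CoA is the building block of fatty acid and sterol synthesis and the donor of protein acetylation, and proximal tubule cells, which burn fatty acids in mitochondria and peroxisomes, make the gene at high levels. Obstruction drives tubule injury, entry of macrophages and lymphocytes, and matrix deposition by fibroblasts. The comparison asked which transcripts differed between the genotypes once a kidney was obstructed.

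Levels are given as FPKM, fragment counts divided by transcript length and by library depth. Values for the WT UUO and then the Acot12-/- UUO libraries are listed in order of replicates 1, 2 and 3. Differences are Acot12-/- minus WT on the log2(FPKM + 1) scale, which understates changes of genes at low FPKM. They come with their standard error (SE) or 95% confidence interval from limma, and calls needed p under 0.05 after Benjamini-Hochberg adjustment across all 12875 tested genes. An unadjusted p under 0.05 and groups without overlap are given as descriptions beside their share over all genes tested.

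The 6 libraries held an estimated 18500000 to 23000000 fragments and correlated with each other at Pearson r of 0.969 to 0.992 over the genes tested. The Acot12-/- replicates differed among themselves more than the WT replicates. The median SD of a gene within the group was 0.157 in Acot12-/- UUO and 0.111 in WT UUO on the log2 scale, and it was larger in Acot12-/- UUO for 66.9% of genes. On the first principal component, with 46.9% of the variance, Acot12-/- UUO replicate 2 (-25.6) lay at the opposite end from replicates 1 (15.2) and 3 (19.6), while the WT libraries lay at -14.4, -10.1 and 15.4. On the second component, with 22.8%, Acot12-/- replicate 1 (-1.1) lay between the WT libraries (-9.0, -10.2 and -12.5) and Acot12-/- replicates 2 (14.7) and 3 (18.0). Results are therefore given library by library.

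Acot12 itself, on chromosome 13 (GRCm38, 91741512 to 91786148, plus strand), was the first check of the labels. Its level was 9.98, 16.7 and 21.2 FPKM in WT UUO and 3.28, 1.80 and 3.86 FPKM in Acot12-/- UUO kidneys. Every Acot12-/- library lay below every WT library. The difference was -2.07 (SE 0.28, limma adjusted p = 0.0442). Transcript was thus still counted in Acot12-/- kidneys, with a mean of 2.98 ± 1.06 FPKM (SD, n = 3) against 16 ± 5.67 (SD, n = 3). Contralateral kidneys had 68.2 ± 13.6 FPKM in WT and 8.32 ± 1.32 in Acot12-/- mice (SD, n = 3 each), also without overlap. A mutant allele can still be transcribed, and the values do not say which part of the transcript the fragments came from.

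Slc4a11 was the other gene called, also at a lower level. SLC4A11 is a membrane protein of the bicarbonate and borate transporter family and is known for mutations in corneal endothelial dystrophy. It lies on chromosome 2 (GRCm38, 130684113 to 130697519, minus strand), away from Acot12. Its level was 23.8, 23.2 and 20.7 FPKM in WT UUO and 6.51, 9.51 and 7.23 FPKM in Acot12-/- UUO kidneys, a difference of -1.44 (SE 0.18, 95% interval -1.84 to -1.04, limma adjusted p = 0.0442) or 2.72-fold. The replicates of each genotype lay close together, in contrast to most genes described below. Contralateral kidneys also differed, with 4.36 ± 1.40 FPKM in WT and 1.33 ± 0.0702 in Acot12-/- mice (SD, n = 3 each, adjusted p = 0.00743). The genotype difference did not differ between the sides beyond its error (interaction -0.27, SE 0.26, adjusted p = 0.846).

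**Figure D1:**
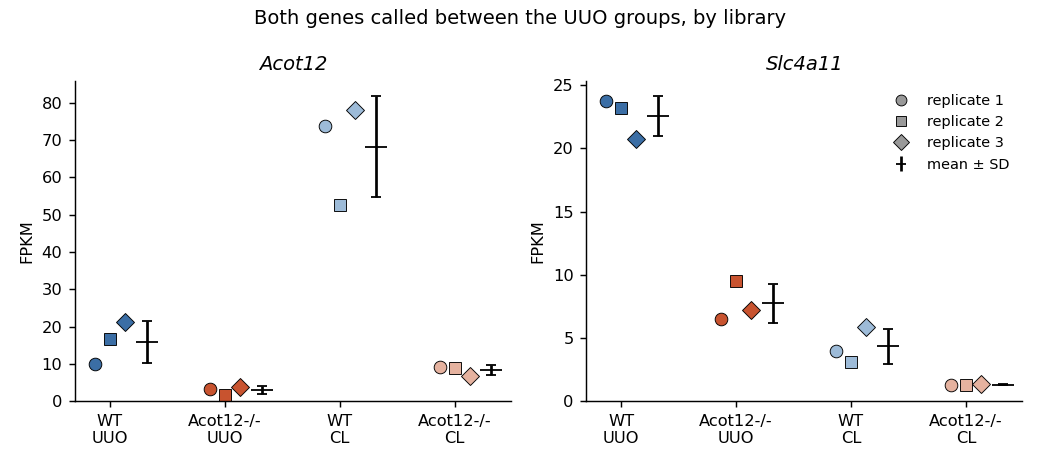
FPKM of Acot12 (left) and Slc4a11 (right) in each of the 12 libraries, by group, with the replicate given by the shape of the point and black bars for the mean ± SD (n = 3). All 3 Acot12-/- libraries lie below all 3 WT libraries on both sides, for Acot12 at 1.80 to 3.86 against 9.98 to 21.2 FPKM and for Slc4a11 at 6.51 to 9.51 against 20.7 to 23.8 FPKM in UUO kidneys.

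These were 2 calls among 12875 genes, or 0.0155%, and no gene was called higher. Both lost the call when the 2 kidneys of a mouse were tied together by a replicate block (adjusted p = 0.0635 each), although their differences stayed the same. With each UUO library left out in turn, Acot12 was called only without WT replicate 1 and Slc4a11 only without Acot12-/- replicate 2. Over all alternatives the difference of Acot12 ranged from -2.38 to -1.84 and that of Slc4a11 from -1.63 to -1.34, with adjusted p of 0.00663 to 0.434 and of 0.00122 to 0.361. At an unadjusted p under 0.05 there were 304 genes (2.36%), 175 higher (1.36%) and 129 lower (1.00%) in Acot12-/- UUO. This split turned over when every library was scaled to the same total FPKM, with 0.598% higher and 2.77% lower. Groups did not overlap for 703 genes higher (5.46%) and 839 lower (6.52%). The contralateral contrast of the same genotypes called 567 genes (4.40%), although the estimated depth of its libraries was lower.

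**Figure D2:**
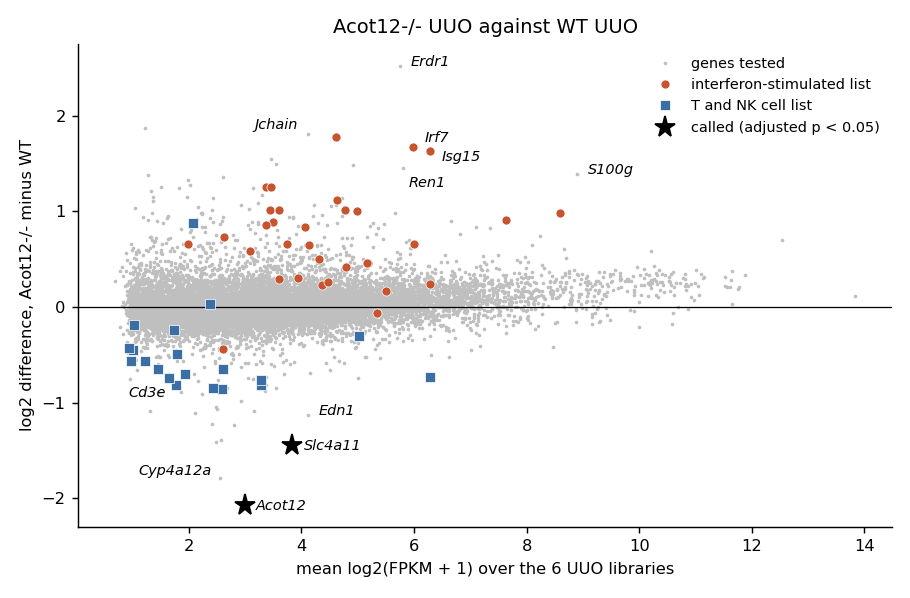
Each point is 1 of the 12875 genes tested, with its mean log2(FPKM + 1) over the 6 UUO libraries on the horizontal axis and its log2 difference, Acot12-/- minus WT, on the vertical axis. Acot12 (-2.07) and Slc4a11 (-1.44), drawn as stars, were called, most T and NK cell genes (blue squares) lie below 0 and most interferon-stimulated genes (orange circles) lie above 0.

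Neighbours of Acot12 on chromosome 13 were not called. Among the tested genes nearest to it on either side were Atg10, Ssbp2, 4833422C13Rik, Zcchc9 and Msh3. Their differences ran from -0.19 (Msh3) to 0.13 (Atg10), with none at an unadjusted p under 0.05. Of these Msh3 was lower without overlap between the groups. The gene 4833422C13Rik is annotated on the opposite strand, its 5' end overlaps that of Acot12, and its level was 2.10, 3.00 and 2.13 FPKM in WT UUO and 1.63, 2.60 and 2.48 in Acot12-/- UUO.

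The other thioesterase genes were read next. Of 17 acyl-CoA thioesterase genes 13 were tested, 9 of them above and 4 below 0, with a median difference of 0.08 against 0.00 over all genes, and of -0.05 without Acot12-/- replicate 1 and 0.18 without replicate 2. Only Acot12 was called. Acot3, a peroxisomal thioesterase for long-chain acyl-CoA, had 0.887, 0.918 and 1.36 FPKM in WT UUO and 4.81, 1.21 and 1.75 FPKM in Acot12-/- UUO. Its difference of 0.68 (SE 0.30, unadjusted p = 0.0400) had its highest value in replicate 1, and the groups overlapped. Acot11, which like Acot12 encodes a thioesterase with a lipid-binding START domain, had 3.79, 4.15 and 6.00 FPKM in WT UUO and 7.09, 2.31 and 7.15 in Acot12-/- UUO, with replicate 2 the lowest of the 6 and the other 2 the highest. The most abundant member, Acot13, ranged from 114 to 166 FPKM in WT UUO and from 107 to 196 in Acot12-/- UUO. Among the 10 genes of the Slc4 family, 6 were tested, and those other than Slc4a11 had differences between -0.09 and 0.35 with overlapping groups.

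Genes of T cells and natural killer (NK) cells had the lowest median difference of the 40 gene lists read. T cells carry the CD3 complex, which passes the signal of the antigen receptor on through the kinase LCK and the adaptor LAT. Of the 28 genes in the list 20 were tested, and 18 of these lay below 0, with a median difference of -0.61 (all genes 0.00, of which 50.4% lay above 0). At an unadjusted p under 0.05, 14 of the 20 were lower (1.00% of all genes) and 1 was higher, and 10 were lower without overlap between the groups (6.52% of all genes). The filter can let in a gene through the WT libraries alone, so these counts can include such members. With no filter on low values 25 genes were tested, with a median of -0.50. Of these 15 were lower at an unadjusted p under 0.05 (1.85% of all genes). None passed the adjusted threshold.

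Cd3e, a chain of the CD3 complex, had 3.89, 3.19 and 3.61 FPKM in WT UUO and 1.90, 1.71 and 1.19 FPKM in Acot12-/- UUO (difference -0.82, SE 0.15, unadjusted p = 0.000124, adjusted p = 0.399). Cd3d had 8.09, 7.00 and 6.42 FPKM against 4.45, 2.17 and 4.18 FPKM, and Cd3g had 12.7, 12.1 and 11.1 FPKM against 9.05, 5.36 and 5.18 FPKM. In all 3 chains the groups were apart, and Acot12-/- replicate 1 lay nearest to the WT range. Lck, the kinase that starts signalling from the receptor, had 7.37, 6.23 and 6.33 FPKM in WT UUO and 4.27, 3.55 and 3.79 in Acot12-/- UUO, a difference of -0.65 (SE 0.15). Lat stood at 6.86, 6.49 and 5.48 FPKM against 4.2, 1.79 and 3.53 FPKM, and Cd2, an adhesion receptor of T and NK cells, at 3.46, 3.86 and 4.41 FPKM against 2.84, 1.61 and 1.73 FPKM. Cd247, Cd5 and Cd6 were also lower without overlap, with differences of -0.56, -0.45 and -0.43. With a pseudocount of 0.1 these were -0.97, -0.87 and -0.82, a change typical of genes at low FPKM. They may have passed the filter through the WT libraries alone, so their differences give no support for the list.

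Markers of killer cells differed among themselves. Cd8b1, a chain of the CD8 co-receptor, had 2.18, 4.24 and 3.04 FPKM in WT UUO and 2.42, 1.01 and 1.09 FPKM in Acot12-/- UUO, so that replicate 1 lay within the WT range. Nkg7, a granule protein, and Ccl5, a chemokine that T and NK cells release, had the same layout, at 11.7, 12.4 and 10.9 against 11.1, 4.04 and 5.87 FPKM for Nkg7 and 93.7, 123 and 85.1 against 95.1, 43.3 and 50.7 FPKM for Ccl5. The NK receptor gene Klrd1 differed by 0.03 (95% interval -0.38 to 0.44). Gzma, which encodes the protease granzyme A, lay above 0 without overlap (difference 0.88, SE 0.24, unadjusted p = 0.00282). Its level was 1.84, 2.96 and 1.63 FPKM in WT UUO and 5.27, 3.63 and 5.37 FPKM in Acot12-/- UUO. Gzmk, another granzyme gene of the list, lay the other way, among the members lower at an unadjusted p under 0.05.

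Some of the largest differences below 0 without overlap, chosen for that direction, were also lymphocyte genes. The GTPase genes Gimap3 and Gimap7 belong to a cluster on chromosome 6 that is active in lymphocytes. Gimap3 had 7.32, 6.80 and 7.58 FPKM in WT UUO and 3.73, 2.20 and 3.01 FPKM in Acot12-/- UUO (difference -1.07, SE 0.16, adjusted p = 0.0801), and Gimap7 had 5.45, 5.45 and 5.17 against 3.11, 1.36 and 1.66 FPKM (difference -1.10, SE 0.20, adjusted p = 0.406). Gimap1, Gimap4, Gimap5 and Gimap6 of the same cluster, chosen after their values were seen, had differences of only -0.17 to -0.11, with overlapping groups. The chemokine receptor gene Cxcr6, carried by tissue T and NKT cells, had 7.39, 6.48 and 7.14 FPKM in WT UUO and 4.02, 1.79 and 3.12 FPKM in Acot12-/- UUO. Cxcr3, another chemokine receptor of activated T cells that was also chosen after its values were seen, had 4.06, 3.19 and 4.68 against 2.48, 1.14 and 1.57 FPKM.

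**Figure D3:**
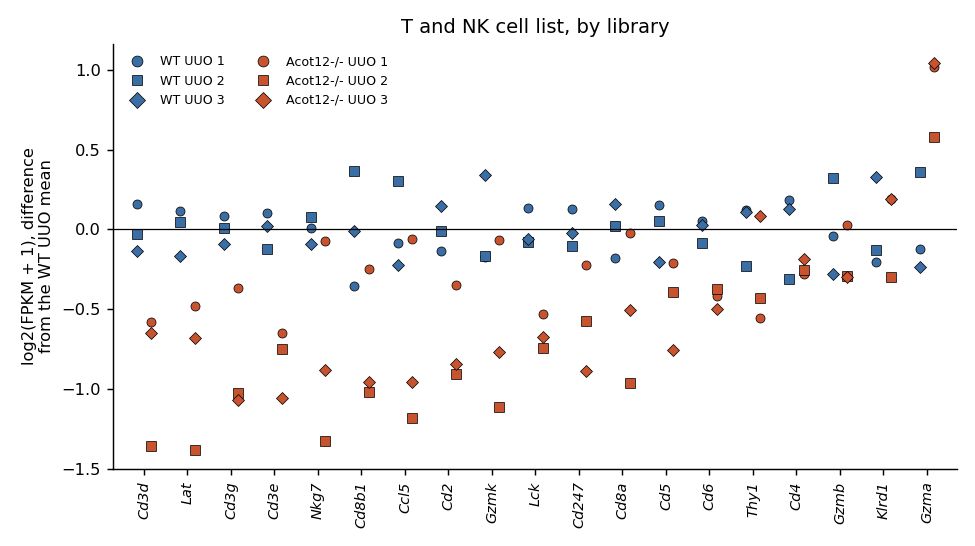
For 19 tested genes of the T and NK cell list, the log2(FPKM + 1) of each UUO library is drawn as its difference from the mean of the 3 WT UUO libraries, with WT in blue, Acot12-/- in orange and the replicate given by the shape. Acot12-/- replicates 2 (squares) and 3 (diamonds) lie lowest for most genes, replicate 1 (circles) mostly lies nearer to WT, and Gzma is the gene with all 3 Acot12-/- points above WT.

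Averaged over the 20 genes, Acot12-/- replicates 1, 2 and 3 lay -0.22, -0.72 and -0.55 from the WT mean, and the WT replicates between 0.00 and 0.01. The summed level of the list was 200 to 231 FPKM in WT UUO and 106 to 182 in Acot12-/- UUO. Contralateral kidneys had a median of -0.72 over the same genes, with 11 of the 20 called lower there (3.39% of all genes). Without any 1 UUO library the median stood between -0.73 and -0.50. The number of genes lower at an unadjusted p under 0.05 then stood between 10 and 15 (0.73% to 1.25% of all genes). In bulk cortex, fewer cells of a type and less RNA per cell cannot be told apart.

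Of the 16 genes of B cells and plasma cells only 3 were tested, and these were higher without overlap (5.46% of all genes), while Ms4a1 and Pax5, which define B cells, were at or below 0.223 FPKM in every UUO library. Jchain encodes the joining chain of secreted immunoglobulins and had 9.27, 7.32 and 8.33 FPKM in WT UUO and 19.0, 41.2 and 39.8 FPKM in Acot12-/- UUO (difference 1.81, SE 0.44, adjusted p = 0.853). Mzb1, a chaperone of immunoglobulin assembly, had 0.782, 0.710 and 0.911 FPKM against 1.58, 3.80 and 2.68 FPKM. It passed the filter on low values only through the Acot12-/- libraries, so its difference gives no support for the list. With no filter the median over 10 genes of the list was 0.11, against 0.99 over the 3 tested. Jchain and Mzb1 were at an unadjusted p under 0.05, and Cd79b was not (difference 0.40, SE 0.25). Replicate 1 again lay nearest to WT, at 0.61 over the 3 genes, Mzb1 included, against 1.32 and 1.27 for replicates 2 and 3.

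Interferon-stimulated genes were high in 2 of the 3 Acot12-/- UUO kidneys and at the WT level in the third. Type I interferon acts through a complex of transcription factors with IRF9, which turns on antiviral genes such as the IFIT and OAS families, ISG15 and IRF7. All 33 genes of the list were tested, and 31 lay above 0, with a median difference of 0.66. At an unadjusted p under 0.05, 10 were higher (1.36% of all genes) and 0 lower, and 9 were higher without overlap (5.46% of all genes). None passed the adjusted threshold.

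The response element that this complex binds was searched for in the 250 bases before the transcription start. Its core letters, GAAA followed after 2 bases of any kind by GAAA, or TTTC and TTTC in the same spacing for the other strand, stood before 13 of the 25 listed genes that have a promoter entry (52.0%), and before 3.46% of the 27025 genes of all promoters in RefSeq (GRCm38.p6). The list was made of interferon-stimulated genes, so an excess over all promoters was built in and says nothing about these kidneys. Among list members at an unadjusted p under 0.05, 4 of 8 with an entry had it, and 9 of 17 among the others (52.9%). Matches may overlap each other. The 4 stretches are shown because they belong to the members at an unadjusted p under 0.05 that hold the letters. They are written 5' to 3' on the strand of the gene, with each match in capitals.
Ifit1 (chr19:34640755-34640843, plus strand): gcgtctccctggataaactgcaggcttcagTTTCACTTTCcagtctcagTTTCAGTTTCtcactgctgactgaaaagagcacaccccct
Isg15 (chr4:156200845-156200926, minus strand): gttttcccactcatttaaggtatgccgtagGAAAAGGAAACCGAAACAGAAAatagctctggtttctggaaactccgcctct
Oas1a (chr5:120907526-120907575, minus strand): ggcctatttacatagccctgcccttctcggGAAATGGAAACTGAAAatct
Rsad2 (chr12:26456533-26456602, minus strand): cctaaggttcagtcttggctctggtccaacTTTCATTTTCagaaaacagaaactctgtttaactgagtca
The matches begin 104 bases before the start of Ifit1, 78 before Isg15, 20 before Oas1a and 120 before Rsad2. A match is a description of the sequence and not a measured site.

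Ifit1, which binds foreign RNA, had 12.8, 12.2 and 11.5 FPKM in WT UUO and 15.8, 86.2 and 61.8 FPKM in Acot12-/- UUO (difference 1.78, SE 0.78, unadjusted p = 0.0408). Isg15, a ubiquitin-like protein, had 43.7, 46.6 and 39.7 FPKM against 38.5, 294 and 219 FPKM. Replicates 2 and 3 stood far above every WT library and replicate 1 stood below all 3. Irf7, the factor that amplifies interferon production, had 30.5, 34.6 and 38.8 FPKM against 45.8, 216 and 143 FPKM, here without overlap (difference 1.68, SE 0.55, unadjusted p = 0.0106). Rsad2, whose product viperin blocks viral replication, had 7.47, 7.24 and 7.99 FPKM against 9.65, 25.4 and 17.4 FPKM. Oas1a, a sensor of double-stranded RNA, had 6.04, 6.30 and 7.75 FPKM against 7.22, 22.4 and 18.2 FPKM. Ifi44, Oasl1, Oasl2, Oas2 and Mx1 were the other members at an unadjusted p under 0.05, with differences of 1.26, 0.89, 1.12, 0.73 and 0.66. Ifit3b, a relative of Ifit1 outside the list, had 5.91, 5.72 and 4.76 FPKM against 8.34, 34.2 and 19.2 FPKM. Reads of the IFIT and OAS paralogs can be shared between them, and the counting rule is not given.

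Not all members of the list lay high. Cxcl9 and Cxcl10, chemokines that draw T cells, were the list members below 0, at -0.43 (95% interval -1.07 to 0.20) and -0.06 (-0.77 to 0.65). Cxcl9 had 8.32, 6.25 and 4.32 FPKM in WT UUO and 4.80, 3.64 and 4.41 FPKM in Acot12-/- UUO. Gbp2, Iigp1 and Igtp, all guanosine triphosphatases, had differences of 0.17, 0.23 and 0.26 with overlapping groups. The 7 genes of antigen presentation on MHC class II had a median of 0.03, with none at an unadjusted p under 0.05.

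**Figure D4:**
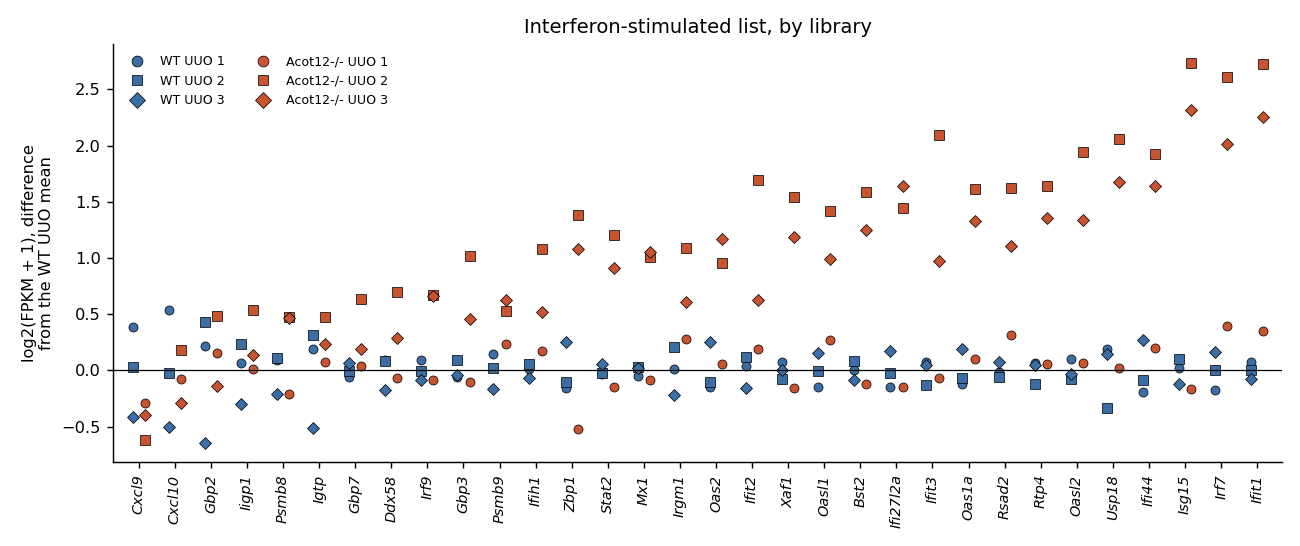
For 32 genes of the interferon-stimulated list, the log2(FPKM + 1) of each UUO library is drawn as its difference from the WT UUO mean, with WT in blue, Acot12-/- in orange and the replicate given by the shape. Acot12-/- replicates 2 (squares) and 3 (diamonds) lie above WT for most genes, while replicate 1 (circles) mostly lies near the WT points. It lies above all 3 of them for some genes, such as Irf7, and below all 3 for Isg15.

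Averaged over the 33 genes the Acot12-/- replicates lay 0.03, 1.25 and 0.90 from the WT mean, and the WT replicates between -0.06 and 0.04. Without Acot12-/- replicate 1 the median of the list was 1.06 and 21 genes were higher at an unadjusted p under 0.05 (2.02% of all genes). Without replicate 2 the median was 0.44 and 0 genes were (2.86% of all genes). Without replicate 3 they were 0.63 and 1 (0.862%). Without WT replicate 1 or WT replicate 2 the count was also 1 (0.901% and 0.878%), at medians of 0.65 and 0.68. Without WT replicate 3 the count was 5 (1.57%). On the contralateral side the same animals' numbers stood at -0.87, 0.74 and 0.21 from the WT CL mean, so that replicate 1 was lowest and replicate 2 highest there too, with a list median of 0.00. The list's difference between the sides was not called for any of its genes.

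Neutrophil genes were highest in Acot12-/- replicate 2. Of 12 genes 5 were tested, with a median of 0.89. It was 0.40 without that library, 0.45 with array weights and 0.28 over 11 genes with no filter on low values. S100a9, a calcium-binding protein of neutrophil granules, had 14.7, 34.3 and 9.02 FPKM in WT UUO and 19.5, 96.6 and 29 FPKM in Acot12-/- UUO. Retnlg had 0.235, 1.03 and 0.343 FPKM against 1.38, 5.98 and 2.62 FPKM (difference 1.39, SE 0.40, unadjusted p = 0.00494) and passed the filter through the Acot12-/- libraries, with 1 WT library at 1 FPKM or more, and Il1b, the inflammasome cytokine, had 4, 3.16 and 1.98 FPKM against 3.93, 13.5 and 4.50 FPKM. The same library was highest for Ccl3 and Ccl4, chemokines that draw myeloid cells, with 12.5 and 10.4 FPKM, against 1.17 to 1.74 and 1.82 to 2.48 FPKM in WT UUO. Acot12-/- replicates 1 and 3 had 4.33 and 2.46 FPKM of Ccl3 and 2.74 and 5.17 FPKM of Ccl4. Camp and Ngp, granule genes of maturing neutrophils, stood at or below 0.255 FPKM in all 6 libraries.

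Macrophage genes had a small median difference. Of 26 genes 22 were tested, with a median of 0.23, 19 above and 3 below 0. With equal total FPKM the median was 0.06, with 12 above and 10 below 0, and without Acot12-/- replicate 3 it was 0.14. Trem2, a lipid receptor of macrophages, was the member at an unadjusted p under 0.05, with 7.70, 6.42 and 9.78 FPKM in WT UUO and 9.90, 12.1 and 12.2 in Acot12-/- UUO (difference 0.48, SE 0.20). Adgre1 and Csf1r, which define macrophages, differed by 0.03 (95% interval -0.52 to 0.58) and 0.05 (-0.47 to 0.56). The complement gene C1qa had 170, 151 and 151 FPKM against 136, 241 and 274 FPKM, with replicates 2 and 3 high and replicate 1 low, as for interferon-stimulated genes.

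Proximal tubule genes varied widely within each genotype. Of 32 genes 31 were tested, with a median of 0.18 and 1 at an unadjusted p under 0.05 (Slc7a9, an amino acid transporter). The median was -0.03 without Acot12-/- replicate 1, -0.08 without replicate 3 and 0.00 with equal total FPKM. Without Acot12-/- replicate 2 it was 0.74, with 11 genes higher at an unadjusted p under 0.05 (2.86% of all genes). With array weights it was 0.59, also with 11 (7.91% of all genes). Acot12-/- replicate 2 had the lowest array weight of the 6 UUO libraries (0.598), so these 2 settings are alike. The list mean lay at -0.31, -0.12 and 0.43 in the WT libraries and at 0.81, -0.82 and 0.65 in the Acot12-/- libraries. Slc22a6, the organic anion transporter OAT1, had 15.1, 27.2 and 66.4 FPKM in WT UUO and 53.2, 6.00 and 44.5 FPKM in Acot12-/- UUO. Of the 10 genes with the largest range within Acot12-/- UUO, Slc22a7, Slc22a12, Slc7a13, Dnase1, Serpina1d, Ttr and Cml1 had their lowest value in replicate 2. Slc22a7, an organic anion transporter, had 28.2, 0.884 and 43.9 FPKM there, and 3.27, 2.92 and 29.5 in WT UUO. Cxcl3 and the RNA gene Rmrp were highest in replicate 2, at 22.8 and 590 FPKM, and Hba-a2, an alpha globin copy whose reads are shared with a near-identical gene, ranged from 0.017 to 34.4 FPKM. Injured tubule genes had a median of -0.05 over 22 genes, and Lcn2 (NGAL), secreted by injured tubules, had 316, 417 and 506 FPKM in WT UUO and 312, 462 and 467 in Acot12-/- UUO.

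**Figure D5:**
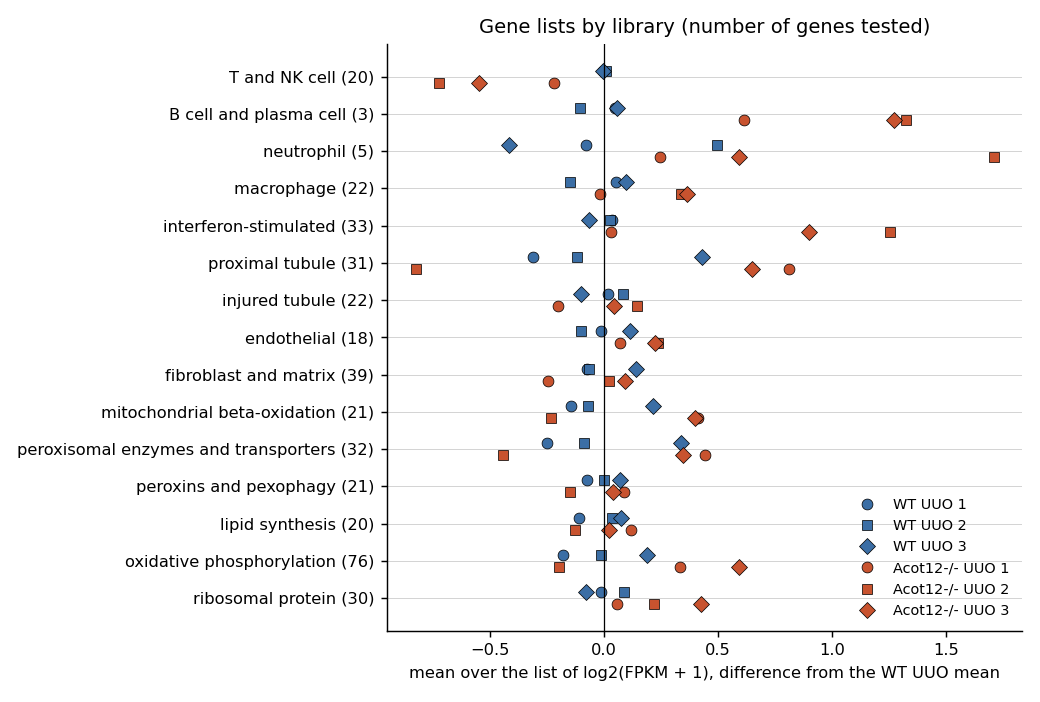
For each of 15 gene lists, the mean over its tested genes of log2(FPKM + 1) in each UUO library is drawn as the difference from the WT UUO mean, with the number of genes tested in brackets, WT in blue and Acot12-/- in orange. The genotypes are apart for T and NK cell genes. They are also apart for the 3 B cell and plasma cell genes tested, of which Mzb1 passed the filter only through the Acot12-/- libraries. Interferon-stimulated genes are high in Acot12-/- replicates 2 and 3 (1.25 and 0.90) and not in replicate 1 (0.03). Proximal tubule genes are low in Acot12-/- replicate 2 (-0.82).

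Of the distal tubule genes, S100g was among the 10 largest differences above 0. S100g, the calcium-binding protein calbindin-D9k, had 257, 296 and 332 FPKM in WT UUO and 1083, 564 and 750 FPKM in Acot12-/- UUO (difference 1.39, SE 0.29, unadjusted p = 0.000456, adjusted p = 0.648). Calb1, calbindin-D28k, had 7.89, 7.25 and 14.2 FPKM against 33.6, 9.41 and 20.8 FPKM, with overlap, and Trpv5, the calcium channel of the same cells, lay the other way, with 5.73, 6.05 and 11.1 FPKM against 5.57, 4.29 and 4.39 FPKM. Over the 16 tested genes of the loop and distal tubule the median was 0.02, and from -0.06 to 0.24 with 1 UUO library left out. Contralateral S100g levels were 12994 to 16132 FPKM in WT and 6038 to 11804 FPKM in Acot12-/- kidneys.

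Fatty acid breakdown was read next, since the study deals with lipid metabolism. Of 21 genes of mitochondrial beta-oxidation, all tested, 18 lay above 0 with a median of 0.17, and 2 were higher at an unadjusted p under 0.05 (1.36% of all genes). The median was 0.00 with equal total FPKM (11 above and 10 below 0) and 0.07 without Acot12-/- replicate 3. It was 0.39 without replicate 2, then with 7 higher at an unadjusted p under 0.05 (2.86% of all genes). Cpt1a, which commits fatty acids to mitochondrial import, had 39.0, 37.7 and 42.3 FPKM in WT UUO and 54.3, 44.0 and 49.9 FPKM in Acot12-/- UUO, without overlap (difference 0.31, SE 0.13, unadjusted p = 0.0415). Slc25a20, the carnitine-acylcarnitine carrier, had 25.4, 26.3 and 29 FPKM against 39.6, 32.5 and 33.7 FPKM, also without overlap (difference 0.38, SE 0.13). The list mean followed the proximal tubule genes in rank, at 0.41, -0.23 and 0.40 in the Acot12-/- replicates, and the part of that shift in these differences was not tested.

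Targets of PPAR alpha gave the other values of this kind. Pdk4, which shuts pyruvate out of the citric acid cycle, had 8.86, 10.4 and 12.6 FPKM in WT UUO and 19.6, 16.4 and 20.1 FPKM in Acot12-/- UUO (difference 0.77, SE 0.23). Cyp4a12a, an omega-hydroxylase of fatty acids that is typical of male kidneys, lay the other way, with 16.4, 7.40 and 7.73 FPKM against 2.69, 1.16 and 2.92 FPKM (difference -1.79, SE 0.53, unadjusted p = 0.00545). Its near copy Cyp4a12b differed by -0.10 with overlap, and reads of the 2 copies can be shared. The receptor gene Ppara differed by -0.23 (95% interval -0.68 to 0.22), and the median over the 22 tested genes was 0.17, from -0.01 without Acot12-/- replicate 1 to 0.41 without replicate 2.

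Peroxisomal genes were not called. Over 32 tested enzymes and transporters the median was 0.09. It was -0.03 without Acot12-/- replicate 1, 0.38 without replicate 2, 0.33 with array weights and -0.08 with equal total FPKM (10 above and 22 below 0). Hacl1, which shortens branched fatty acids, had 10.6, 9.16 and 9.67 FPKM in WT UUO and 16.2, 13 and 12 FPKM in Acot12-/- UUO without overlap (difference 0.44, SE 0.14, unadjusted p = 0.0102). Pxmp2, a pore of the peroxisomal membrane, had 14.4, 13.3 and 18.6 FPKM against 38.0, 17.5 and 34.9 FPKM. For the 21 genes of peroxisome assembly and removal the median was 0.02, with none at an unadjusted p under 0.05. Pex2, an assembly factor named by the study, differed by 0.02 (95% interval -0.34 to 0.38), and Acbd5, a tether to the endoplasmic reticulum, by -0.02 (-0.71 to 0.67). Autophagy genes had a median of 0.03 over 30 genes and lysosomal genes one of 0.07 over 41. Without overlap, 3 autophagy genes were higher and 6 lower (5.46% and 6.52% of all genes). For lysosomal genes these counts were 5 and 1. None of either list was at an unadjusted p under 0.05.

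Genes of lipid synthesis and storage were not called either. Over 20 tested synthesis genes the median was -0.02 and none was at an unadjusted p under 0.05. Acly, which makes cytosolic acetyl-CoA from citrate, had 26.7, 29.8 and 22.5 FPKM in WT UUO and 25.0, 28.4 and 20.2 FPKM in Acot12-/- UUO (difference -0.10, 95% interval -0.48 to 0.28). Acaca and Fasn, which build fatty acids from it, differed by -0.12 (-0.42 to 0.18) and -0.21 (-0.77 to 0.35), and the desaturase gene Scd1 by -0.03 (-1.10 to 1.04). Plin2, which coats lipid droplets, had 92.3, 130 and 89.1 FPKM against 110, 113 and 134 FPKM (difference 0.21, -0.22 to 0.65). Of the 14 tested genes for droplets and uptake, Fabp3 (0.71) and Hilpda (0.57) were at an unadjusted p under 0.05, both with overlap. Cd36, a fatty acid receptor, differed by -0.42 (-1.18 to 0.34).

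No matrix gene was called in Acot12-/- UUO kidneys. Of 40 genes of fibroblasts and matrix 39 were tested, with a median of -0.02, 16 above and 23 below 0, and none at an unadjusted p under 0.05. Col1a1, the main chain of type I collagen, had 62.5, 65.4 and 90.5 FPKM in WT UUO and 57.7, 65.0 and 69.1 FPKM in Acot12-/- UUO (difference -0.17, 95% interval -0.65 to 0.31). Acta2, the smooth muscle actin of myofibroblasts, had 38.1, 50.8 and 48.2 FPKM against 35.4, 32.3 and 35.0 FPKM, lower without overlap (difference -0.40, -0.92 to 0.12, unadjusted p = 0.122). Col4a1, Col14a1 and Col18a1 were also lower without overlap, by -0.27, -0.29 and -0.32, so that 4 of the 39 were (6.52% of all genes). Without Acot12-/- replicate 1 the median of the list was 0.07, with 24 above and 15 below 0. Without replicate 3 it was -0.12. Tgfb1, the main profibrotic cytokine, differed by 0.01 (-0.61 to 0.64), and the 24 tested genes of its axis had a median of 0.04. Ccl2, a monocyte chemokine, had 66.4, 57.5 and 47.1 FPKM against 54.9, 53.5 and 37.8 FPKM (difference -0.23, -0.69 to 0.24).

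Vessel genes lay mostly above 0. Over 18 endothelial genes the median was 0.16, with 17 above 0 and Sox18 at an unadjusted p under 0.05 (difference 0.41, SE 0.16). With equal total FPKM the median was 0.01, with 10 above and 8 below 0. The contralateral contrast went the other way, with a median of -0.90 and 13 of the 18 called lower (3.39% of all genes). Tie1, a receptor of endothelial cells, differed by 0.30 in UUO and by -1.07 in CL kidneys, and this difference between the sides was called (interaction 1.38, SE 0.20, adjusted p = 0.0256), as for 14 genes in all (0.109%). Fabp4, a fatty acid carrier of endothelial cells and adipocytes, was another of them (interaction 2.30, SE 0.33). Its level was 210, 207 and 167 FPKM in WT UUO and 199, 243 and 312 FPKM in Acot12-/- UUO. The difference of Fabp4 was 0.35 in UUO and -1.94 in CL kidneys. Genes with a called interaction numbered 0 when any 1 WT library was left out, and 0 to 913 over all libraries left out in turn. Edn1, the vasoconstrictor endothelin-1, was among the 10 largest differences below 0 without overlap, with 31.2, 31.7 and 14.9 FPKM in WT UUO and 7.99, 12.9 and 11.8 FPKM in Acot12-/- UUO (difference -1.13, SE 0.28, adjusted p = 0.853). Ren1, which encodes renin, was among the 10 largest above 0, with 36.5, 27.2 and 35.2 FPKM against 71.1, 254 and 42.4 FPKM, most of it in replicate 2 (difference 1.46, SE 0.48).

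Other genes of the largest differences without overlap were Erdr1, Gm5483 and Dbp on the higher side and Gm7120, Akr1b3 and Plk3 on the lower side. Erdr1 had 6.06, 28.9 and 51.7 FPKM in WT UUO and 180, 64.5 and 177 FPKM in Acot12-/- UUO, with a wide spread in both groups (difference 2.52, SE 1.16, unadjusted p = 0.0502). Dbp, an output gene of the circadian clock, had 6.68, 3.56 and 8.46 FPKM against 28.2, 15.1 and 15.0 FPKM (difference 1.5, SE 0.42). Akr1b3, the aldose reductase that makes the osmolyte sorbitol, had 11.1, 8.29 and 9.91 FPKM against 2.74, 5.33 and 5.78 FPKM (difference -0.98, SE 0.33). Plk3 differed by -0.91 (SE 0.36) and Gm7120 by -1.23 (SE 0.31).

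Housekeeping lists showed small shifts of 1 sign. All 30 ribosomal protein genes lay above 0 with a median of 0.23 (0.13 without Acot12-/- replicate 3), 11 of them without overlap (5.46% of all genes) and none at an unadjusted p under 0.05, and the list mean was 0.06, 0.22 and 0.42 in the Acot12-/- replicates. Of 76 genes of oxidative phosphorylation 74 lay above 0 with a median of 0.25, and the list mean was 0.33, -0.20 and 0.59. The median was 0.07 without Acot12-/- replicate 3 and 0.48 without replicate 2, then with 23 genes higher at an unadjusted p under 0.05 (2.86% of all genes). Array weights gave 46 such genes (7.91% of all genes) against 0 in the main fit (1.36%). Scaling every library to the same total FPKM moved the median of all genes to -0.15, that of ribosomal protein genes to 0.06 and that of oxidative phosphorylation to 0.08. Genes of the unfolded protein and integrated stress response had a median of -0.10, with 18 of 21 below 0. Asns, the asparagine synthetase that this response turns on, had 14.0, 16.6 and 17.5 FPKM in WT UUO and 9.32, 9.86 and 11.7 FPKM in Acot12-/- UUO (difference -0.59, SE 0.22, unadjusted p = 0.0192).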

How the data were processed

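Total RNA of kidney cortex was sequenced from directional libraries (NEBNext Ultra II Directional kit, Illumina NovaSeq). Read trimming, mapping and normalization were done by a sequencing company. The submitters' processing notes name mm10 and edgeR. The aligner and the counting rule are not given in the sources used here. The authors deposited 1 value per gene symbol and library with no unit in the header, and the values behave as FPKM: the steps between low values scale with gene length. From those steps the depth was estimated, so any scaling factor inside the values would be part of the estimate. Depth limits the precision of low values, and no counts were used.

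Genes at 1 FPKM or more in at least 3 of the 6 UUO libraries were kept. Of 23183 symbols, 12875 were tested, after 12 genes listed at 0 beside 10 FPKM or more in the same group were left out. Values were tested as log2(FPKM + 1) with limma 3.58.1 (R 4.3.3), 4 groups over all 12 libraries, a variance trend and Benjamini-Hochberg adjustment, all two-sided. The procedure was tested on simulated data. Libraries with the same number within a genotype were taken as 1 mouse: deviations from group means correlated at 0.12 to 0.35 in the 6 pairs of CL and UUO libraries. Whether replicates are separate mice is not said beyond the numbering, and p-values measure the spread between these libraries.

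Named genes are the called genes, the 10 largest differences in each direction without overlap at a mean of 2 FPKM or more, the 10 largest ranges within Acot12-/- UUO at a mean of 5 FPKM or more, 3 neighbours on each side of Acot12, and members of the gene lists. A few of these genes are not reported here. The members and lists were chosen with earlier results of these data known. Positions are from GENCODE M21 (GRCm38), in which 22110 symbols were found once, and promoter sequences from RefSeq (GRCm38.p6). Alternatives were another pseudocount, filter, scaling, set of libraries, variance model or block, and leaving out each library. For the UUO contrast, most of those leaving out a CL library were added after the data were seen. For the interaction they were planned.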

Additional observations from a re-analysis of the deposited data

Results flagged for a closer look

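The genotype difference of Fabp4 differed between obstructed and contralateral kidneys, with 0.35 in UUO and -1.94 in CL kidneys on the log2 scale and an interaction of 2.30 (SE 0.33, limma adjusted p = 0.0256). The difference of Tie1 was 0.30 in UUO and -1.07 in CL kidneys, with an interaction of 1.38 (SE 0.20, limma adjusted p = 0.0256). Both interactions contain the CL libraries, of which Acot12-/- replicate 2 had the lowest limma array weight of the 12 libraries (0.0819). The number of genes with such an interaction ranged from 0 to 913 when 1 library was left out. It was 0 when any 1 WT library was left out.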

How the results depend on the processing

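The 2 calls were lost (0 genes called) with a pseudocount of 0.1, with no filter on low values, with only the UUO libraries in the fit, with the replicate block for the mouse and with the replicate block by number. Array weights gave 9 calls, among them Cd3e, Gimap3, Pdk4 and S100g. Leaving out 1 library gave 0 to 2 calls. For Acot12 the difference was -2.38 with a pseudocount of 0.1, -2.07 with no filter, with the UUO libraries alone and under either replicate block, and -2.35 to -1.84 with 1 library left out. For Slc4a11 it was -1.55 with a pseudocount of 0.1, -1.44 under the same 4 settings, and -1.58 to -1.34 with 1 library left out. The count of genes at an unadjusted p under 0.05 was 304, and became 738 with no filter, 144 at a minimum of 5 FPKM, 727 with the UUO libraries alone, 1725 with array weights and 830 under the replicate block by number, and it ranged from 207 to 607 with 1 library left out (607 without Acot12-/- CL replicate 2). Genes with an interaction numbered 203 under the replicate block for the mouse. They ranged from 0 to 913 with 1 library left out, 913 without Acot12-/- CL replicate 2 and 152 without Acot12-/- CL replicate 3. The cause was not tested. Libraries with the same number in the 2 genotypes share only the number: their deviations correlated at -0.31, 0.28 and 0.39.

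Scaling to equal total FPKM lowered the median of all genes by design, to -0.15. List medians became -0.28 for TNF, chemokines and NF-kB, -0.27 for the unfolded protein response, -0.22 for injured tubule, -0.19 for matrix and for lipid synthesis, -0.15 for peroxins, -0.14 for MHC class II, -0.13 for autophagy, -0.10 for lysosome, -0.09 for the TGF-beta axis, 0.01 for endothelial and for podocyte genes and 0.06 for ribosomal protein genes. The T and NK cell median was -0.86 with a pseudocount of 0.1, with 9 genes lower at an unadjusted p under 0.05 (0.707% of all genes). It was -0.50 over 25 genes with no filter. With array weights it was -0.47, with 13 genes lower at an unadjusted p under 0.05 (5.48% of all genes). The median of B cell and plasma cell genes was 1.55 with that pseudocount, 0.11 with no filter and 1.81 at a minimum of 5 FPKM. With 1 library left out the medians ranged from -0.06 to 0.11 for MHC class II, -0.01 to 0.05 for autophagy and -0.12 to -0.02 for the unfolded protein response.

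Genes that changed sign were not called under any of these settings. With equal total FPKM they were Acot11 (-0.04), Adgre1 (-0.13), Atg10 (-0.03), Csf1r (-0.12), Gbp2 (-0.00168), Klrd1 (-0.11), Lcn2 (-0.17), Pex2 (-0.15) and Tgfb1 (-0.15). With array weights they were Acbd5 (0.03), Gbp2 (-0.05), Lcn2 (-0.07), Rmrp (-0.65), Scd1 (0.08), Slc22a12 (0.25) and Slc22a6 (0.51). With 1 library left out the ranges that crossed 0 were -0.16 to 0.06 for 4833422C13Rik, -0.08 to 0.03 for Acbd5, -0.21 to 0.03 for Acly, -0.11 to 0.54 for Acot11, -0.09 to 0.14 for Adgre1, -0.14 to 0.22 for Csf1r, -0.31 to 0.21 for Cxcl10, -0.23 to 0.01 for Cry1, -0.40 to 0.12 for Cyp4a12b, -0.25 to 1.68 for Dnase1, -0.16 to 0.38 for Gbp2, -1.87 to 1.23 for Hba-a2, -0.07 to 0.19 for Klrd1, -0.18 to 0.19 for Lcn2, -0.02 to 0.06 for Pex2, -0.71 to 1.03 for Rmrp, -0.40 to 0.27 for Scd1, -1.03 to 0.55 for Slc22a12, -0.81 to 0.67 for Slc22a6, -0.11 to 2.18 for Slc22a7, -0.19 to 1.44 for Slc7a13, -0.06 to 0.15 for Tgfb1 and -0.22 to 1.48 for Ttr. With 3 libraries a group, small differences were not detectable above the spread within groups, which the main fit takes from all 12 libraries.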

Other observations

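Of 15 genes of the circadian clock, chosen after their values were seen, 4 were lower and 7 higher in Acot12-/- UUO without overlap between the groups (12.0% of all genes in either direction), and Clock (-0.06), Cry1 (-0.12), Hlf (0.47) and Per2 (0.27) overlapped. Arntl, which encodes the clock activator BMAL1, had 2.77, 3.31 and 3.58 FPKM in WT UUO and 1.68, 2.32 and 1.56 FPKM in Acot12-/- UUO. Its relative Npas2 had 2.28, 3.63 and 3.27 against 1.25, 1.46 and 1.70 FPKM, and Per1 had 10.1, 11.7 and 9.56 against 5.30, 5.80 and 6.23 FPKM. Lower values in all 3 Acot12-/- libraries were also seen for Nfil3 (difference -0.62). The repressor genes Nr1d1 and Nr1d2 lay the other way, with differences of 0.72 and 0.54, as did Tef (0.65), Per3 (0.63), Cry2 (0.44) and Ciart (0.46). None was called, except Per1 with array weights. In CL kidneys Cry1 had the opposite sign (0.18), and the other differences had the same sign, from -1.13 for Arntl to 1.60 for Dbp.

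G530011O06Rik had 1.52, 1.47 and 1.89 FPKM in WT UUO and 7.52, 2.26 and 8.21 FPKM in Acot12-/- UUO, and Zfp932 had 13.9, 12.5 and 12.2 against 7.84, 6.01 and 5.99 FPKM. Both were chosen after their values were seen and were called with array weights.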
